A study of Mus musculus with 16 samples.

Results

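The interferon regulatory factors (IRFs) Irf1, Irf2, Irf3, Irf4, Irf5, Irf7 and Irf8 were followed through 16 Affymetrix Mouse Gene 1.0 ST arrays of mouse macrophages and CD4+ T cells. Members were the probe sets that carry 1 of these 7 gene symbols, 8 of 24922 probe sets. Irf1 has 2 of them, and the brighter stands for the gene. Irf9, the DNA-binding subunit of the complex that carries the type I interferon signal to its target genes, was measured beside the 7 for comparison.

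The series asks, by its title, how far interferon-stimulated genes depend on Tyk2 and IFNAR1. IFNAR1 is a subunit of the receptor for type I interferon, and Tyk2 is a kinase attached to it. Macrophages (ICAM2+ F4/80+, peritoneal cavity) came from 6-week-old male B6.129S2-Ifnar1tm1Agt/Mmjax mice, called KO here, and from 7-week-old male B10.Q/J mice, which carry a natural Tyk2 mutation. CD4+ T cells (TCRB+ CD4+ CD8-, spleen) came from 7-week-old male B10.Q/J mice. Each of the 8 groups has 2 arrays. They are KO macrophages 2 h after interferon alpha (IFNα, 10000 units given under the skin), KO macrophages titled without IFNα, and, for both B10.Q cell types, vehicle, IFNα at 2 h and IFNα at 5 h. In each vehicle pair, array 1 was taken at 2 h and array 2 at 5 h. For the KO arrays titled without IFNα, the preparation notes name a 2 h IFNα injection too, and the titles were followed. Most B10.Q macrophage titles carry the spleen code against a peritoneal source, and 1 T-cell vehicle array (array 1) has a title with the B-cell code. No group has both an intact Ifnar1 and an intact Tyk2. KO and B10.Q groups differ in genotype, strain, age and kind of control (vehicle in B10.Q, titled without IFNα in KO), which cannot be told apart.

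IRFs share a DNA-binding domain that reads the interferon-stimulated response element (ISRE). Irf3, Irf5 and Irf7 wait in the cytoplasm until kinases downstream of pattern receptors phosphorylate them, and then switch on interferon and inflammatory genes. Irf7 is itself induced by interferon, which amplifies the response, and Irf1 is induced through STAT binding to gamma-activated sites (GAS). Irf2 can oppose Irf1 at shared sites. Irf4 and Irf8 bind together with partners such as PU.1 (Spi1) and BATF and shape myeloid and lymphoid cells.

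Promoter windows of the members were searched on both strands for ISRE letters (GAAA, any 2 bases, GAAA) and for the GAS letters TTCNNNGAA, because these are the elements through which interferon acts. The windows run from 250 bases before to 50 bases after a RefSeq start in GRCm38.p6. The ISRE letters were found in 3.44% of all 32851 such windows and the GAS letters, which read the same on both strands, in 8.3%. Counted by gene, 3.99% of 27025 genes had the ISRE letters in at least 1 window and 9.55% had the GAS letters. Matches were found for Irf1, Irf2 and Irf8. The matching stretches, all on the plus strand and 5′ to 3′, are printed with the matches in capitals.

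Irf1, chr11:53769894-53769973: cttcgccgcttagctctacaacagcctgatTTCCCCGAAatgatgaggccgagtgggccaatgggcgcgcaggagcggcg
Irf2, chr8:46739495-46739553: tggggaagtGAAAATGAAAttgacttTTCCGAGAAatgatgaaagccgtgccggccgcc
Irf8, chr8:120736157-120736236: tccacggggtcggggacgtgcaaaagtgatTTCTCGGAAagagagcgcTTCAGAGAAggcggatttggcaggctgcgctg

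Irf1 and Irf8 have 2 windows each, for different RefSeq starts, and the matches lie in 1 of them. That Irf1 window has 1 GAS match, which begins 90 bases before its start. In Irf2 an ISRE match begins 241 bases and a GAS match 224 bases before the start. The Irf8 window has 2 GAS matches, beginning 171 and 153 bases before its start. These exact letters are not in the windows of Irf3, Irf4, Irf5, Irf7 or Irf9. A match is a description of the sequence and was not tested for binding.

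Levels are log2 of the deposited array intensity, and a gene was tested where at least 2 arrays of a fit lay above their own median. Differences are given in log2 with the standard error (SE) of the limma fit, and a gene is called at a Benjamini-Hochberg adjusted p under 0.05 over all genes tested. Array medians ran from 173.6 to 193.7 intensity units. The number of arrays limits the precision. Nothing in the labels says that the 2 arrays of a group are separate animals, so p-values measure the spread between these arrays. The mean of 8 macrophage markers was 11.68 to 12.23 in the 10 macrophage arrays, and all 6 measured T-cell markers lay above the array median in all 6 T-cell arrays. The Ifnar1 probe set read 9.93 to 10.31 in the 4 KO arrays and 10.09 to 10.46 in B10.Q macrophages, so it does not check the genotype. Macrophage markers in the T-cell arrays and differences between the KO arrays are given beside the results they touch.

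Irf7 was the member with the largest rise after IFNα, in macrophages and in T cells. In B10.Q macrophages it read 8.37 and 8.64 with vehicle, 11.63 and 10.77 at 2 h, and 11.24 and 11.42 at 5 h. All 4 IFNα arrays lay above both vehicle arrays, and array 1 at 2 h was the highest of them. The rise was 2.70 ± 0.28 (SE, n = 2 arrays per group, 6.48-fold, limma adjusted p = 0.00152748) at 2 h. At 5 h it was 2.83 ± 0.28 (7.09-fold, limma adjusted p = 0.00100117). By size of rise Irf7 stood 17th of 10531 genes at 2 h and 13th at 5 h. It was the only 1 of the 7 members called at either time, where 0.798% of all genes tested were called at 2 h and 0.836% at 5 h. In bulk arrays, fewer cells of a type and less RNA per cell cannot be told apart.

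Irf7 also rose in CD4+ T cells at 2 h. It read 9.16 and 8.96 with vehicle, 11.13 and 10.73 at 2 h, and 10.05 and 10.29 at 5 h, and the 3 groups did not overlap. The rise at 2 h was 1.87 ± 0.16 (3.66-fold, limma adjusted p = 0.00630815), the only call among the 6 members tested, beside 0.287% of all genes. At 5 h the difference from vehicle was 1.11 ± 0.16 (limma adjusted p = 0.166), and 0 of 6 members were called, beside 0.0198% of all genes, with 2 (Irf4 and Irf7) at an unadjusted p under 0.05, beside 3.83% of all genes at that p. From 2 h to 5 h the difference was -0.76 ± 0.16 (limma adjusted p = 0.355), again with 0 members called, beside 0.00989% of all genes. At an unadjusted p under 0.05 there were 5 of 6 (all but Irf3), beside 9.85% of all genes. Of these 5, Irf4 was higher at 5 h, and Irf1, Irf2, Irf7 and Irf8 were lower.

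The T-cell arrays at 2 h also held macrophage transcripts. The mean of the 8 macrophage markers was 8.40 and 7.55 in these 2 arrays, against 7.00 to 7.17 in the other 4 T-cell arrays, and 5 and 2 of the 8 markers lay above the array median. Without the T-cell array 1 at 2 h, which held more of them, the rise of Irf7 was 1.67. The 2 h array that remained, with a marker mean of 7.55, was not free of them either. With macrophage RNA subtracted, an alternative chosen after seeing the data, the rise was 1.87 (limma adjusted p = 0.00701127). That subtraction used the median marker, 2.04% of the macrophage level in array 1 and 0.364% in array 2, while single markers in array 1 ran from 0.151% to 30.9%. The call at 2 h was lost without T-cell vehicle array 1 (1.98, limma adjusted p = 0.134), without vehicle array 2 (1.77, limma adjusted p = 0.168) and with only the compared groups in the fit (limma adjusted p = 0.0509). With only the compared groups the 5 h difference was called (limma adjusted p = 0.00127684), where 0.633% of all genes were.

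**Figure D1:**
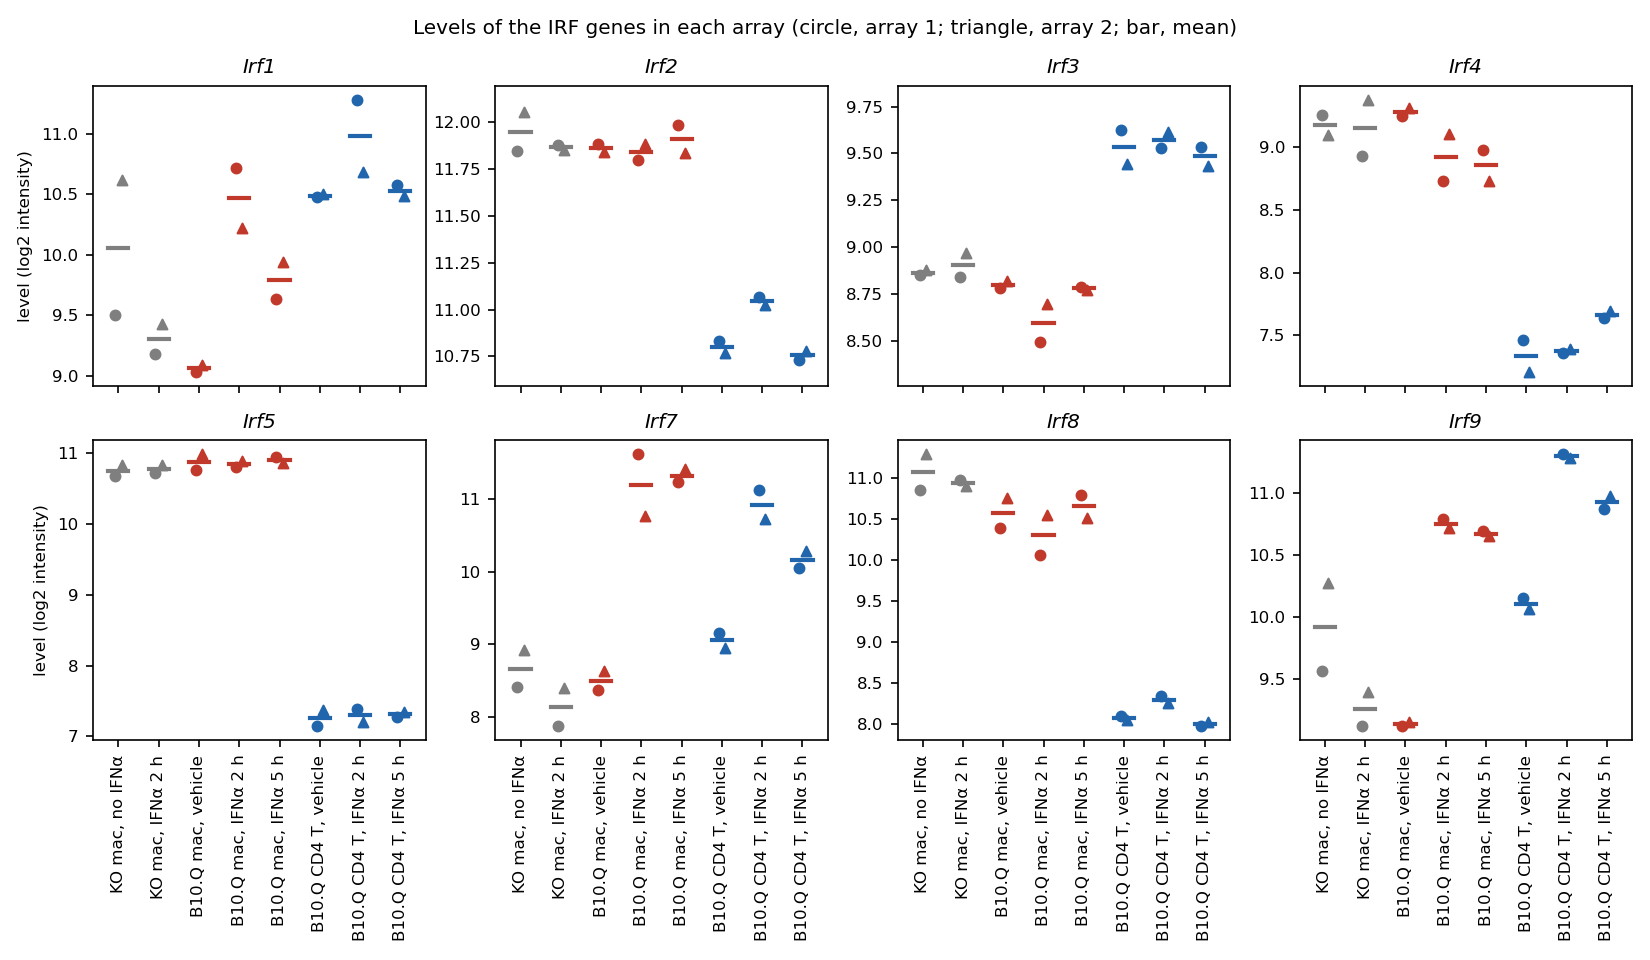
Level of each IRF gene (log2 intensity, vertical axis) in the 2 arrays of each of the 8 groups, with KO macrophages in grey, B10.Q macrophages in red and B10.Q CD4+ T cells in blue. Circles are array 1, triangles array 2 and bars the group mean, and each panel has its own range. Irf7 and Irf9 sit higher in the IFNα arrays of both B10.Q cell types than in their vehicle arrays, while Irf5 lies between 10.67 and 10.99 in macrophages and between 7.14 and 7.39 in T cells.

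In KO macrophages Irf7 read 8.42 and 8.92 in the arrays titled without IFNα and 7.87 and 8.40 with IFNα. KO IFNα array 1, which read 7.87, had a B-cell marker mean of 7.60, against 6.78 in KO IFNα array 2. Its macrophage marker mean was 11.68, against 12.17 in array 2. Both IFNα arrays lay below both others, although 8.40 and 8.42 nearly met, and the difference of -0.53 ± 0.28 was not called (limma adjusted p = 0.9996). It was -0.26 without KO IFNα array 1, -0.80 without KO IFNα array 2 and -0.28 without array 2 titled without IFNα. With limma 0 of the 7 members were called in this comparison, beside 0% of all genes tested, and 1 (Irf1) had an unadjusted p under 0.05, beside 4.37%. The 2 h response of Irf7 was larger in B10.Q than in KO macrophages by 3.23 ± 0.40 (limma adjusted p = 0.00894825), the only call among 7 members, beside 0.408% of all genes. Without KO array 2 titled without IFNα that difference was 2.98 (limma adjusted p = 0.0699), and without B10.Q vehicle array 1 it was 3.09 (limma adjusted p = 0.0520).

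Irf1, an inducible activator of antigen presentation genes, had its highest B10.Q macrophage levels at 2 h but did not pass the test. With vehicle it read 9.03 and 9.09 in B10.Q macrophages, at 2 h 10.72 and 10.22, and at 5 h 9.64 and 9.94. The 3 groups did not overlap, with 2 h highest, and 11.3% of all genes tested also had both 2 h arrays above both vehicle arrays. The difference was 1.41 ± 0.30 at 2 h (2.66-fold, limma adjusted p = 0.0964), the 64th of 10531 by size of rise. At 5 h it was 0.73 ± 0.30 (limma adjusted p = 0.9998). Irf1 was called at 2 h with only the compared groups in the fit (limma adjusted p = 0.00212142, where 1.22% of all genes were called) and with all 16 arrays in 1 fit (limma adjusted p = 0.0290, 0.973% of genes). At 5 h it was called with only the compared groups (limma adjusted p = 0.0174, 2.02% of genes). The dimmer Irf1 probe set differed by 0.60 ± 0.16 at 2 h and 0.24 ± 0.16 at 5 h (limma adjusted p = 0.297 and 0.9999).

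In T cells Irf1 read 10.47 and 10.50 with vehicle, 11.28 and 10.69 at 2 h, and 10.58 and 10.48 at 5 h. Both 2 h arrays lay above vehicle, but array 1 accounted for most of the difference of 0.49 ± 0.18 (limma adjusted p = 0.763). Without array 1 at 2 h, which also held more macrophage transcripts, the difference was 0.20, and without array 2 it was 0.79 (limma adjusted p = 0.000868964). Without array 2, 18.1% of all genes were called, against 0.287% with it. With vehicle, Irf1 was lower in macrophages than in T cells. With macrophage RNA subtracted the 2 h difference was 0.50.

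KO macrophages gave Irf1 levels of 9.18 and 9.43 with IFNα and of 9.50 and 10.61 in the arrays titled without it. The gap of 1.11 within the pair titled without IFNα exceeded the difference of -0.75 ± 0.30 between the groups (limma adjusted p = 0.9996). Without array 2 of that pair the difference was -0.20, and without array 1 it was -1.31. The 2 h response in B10.Q exceeded that in KO by 2.16 ± 0.43 for Irf1, which was not called (limma adjusted p = 0.0843). It was 1.61 (limma adjusted p = 0.143) without KO array 2 titled without IFNα. It became called without array 1 of that pair (2.72, limma adjusted p = 0.0126, where 0.286% of all genes were called), without KO IFNα array 2 (2.29, limma adjusted p = 0.0151, 4.68% of genes) and with all 16 arrays in 1 fit (limma adjusted p = 0.0237, 0.637% of genes).

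KO array 2 titled without IFNα was above array 1 for several IRF genes. Irf1 was higher in it by 1.11, a gap reached by 0.0855% of 10531 genes. For Irf9 the gap was 0.71 (reached by 0.294% of genes), for Irf7 0.50 (1.09%) and for Irf8 0.43 (1.65%). Irf2, Irf3 and Irf5 differed by 0.21, 0.02 and 0.17, and Irf4 by -0.16. All 8 tested genes of the list of known Irf1 targets were also higher in array 2, with a median gap of 0.47 against 0.01 over all genes, of which 51% were higher. Among them Tap1, a peptide transporter of antigen presentation, read 9.02 and 10.18 in arrays 1 and 2. Ciita, the master activator of MHC class II genes, read 7.62 and 8.63. Means of the B-cell markers ran the other way, 7.40 in array 1 and 6.87 in array 2.

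**Figure D2:**
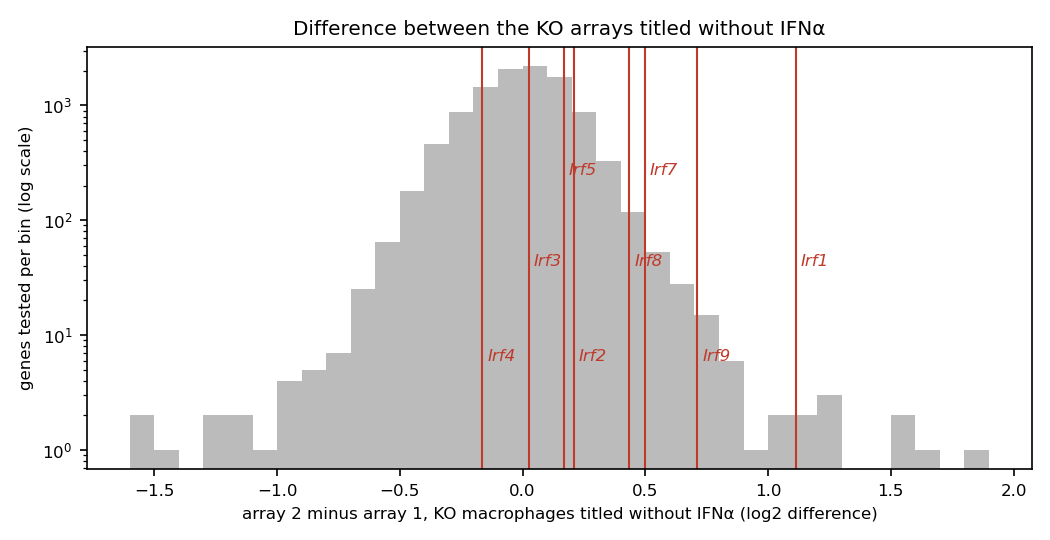
Number of genes tested (vertical axis, log scale) by the difference between array 2 and array 1 of the KO macrophages titled without IFNα (horizontal axis, log2, bins of 0.1). Red lines mark the IRF genes: Irf1 at 1.11 lies in the upper tail, and Irf4 at -0.16 lies below 0.

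Irf9, like Irf7, was called in B10.Q macrophages at both times, in T cells at 2 h and for the 2 h response difference between B10.Q and KO. In B10.Q macrophages it read 9.12 and 9.15 with vehicle, 10.79 and 10.72 at 2 h, and 10.69 and 10.65 at 5 h. It rose by 1.62 ± 0.20 at 2 h (3.07-fold, limma adjusted p = 0.00377026) and by 1.54 ± 0.20 at 5 h (limma adjusted p = 0.00464611). In T cells it read 10.15 and 10.06, then 11.32 and 11.29 at 2 h, and 10.87 and 10.98 at 5 h. Its rise there was 1.20 ± 0.09 at 2 h (limma adjusted p = 0.00630815) and the difference at 5 h was 0.82 ± 0.09 (limma adjusted p = 0.0579). The T-cell arrays at 2 h are those with macrophage markers. In the KO arrays Irf9 read 9.11 and 9.39 with IFNα, and 9.56 and 10.27 in the arrays titled without IFNα. The KO difference was -0.67 ± 0.20 (limma adjusted p = 0.911), with array 2 titled without IFNα the highest of the KO arrays. The 2 h response of Irf9 was larger in B10.Q than in KO by 2.28 ± 0.28 (limma adjusted p = 0.00894825). The alternatives, among them each array left out, were followed for the 7 members and not for Irf9.

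Irf3 and Irf5, which are activated by phosphorylation, had no called change after IFNα. Irf3 in B10.Q macrophages read 8.78 and 8.82 with vehicle, 8.49 and 8.70 at 2 h, and 8.79 and 8.77 at 5 h. Both 2 h arrays lay below vehicle, with a difference of -0.20 ± 0.11 (95% interval -0.46 to 0.05, limma adjusted p = 0.984). In T cells Irf3 lay between 9.43 and 9.63 in all 6 arrays, and in KO macrophages between 8.84 and 8.97 in all 4. Irf5 lay between 10.67 and 10.99 in all 10 macrophage arrays. Its 95% interval for the B10.Q difference ran from -0.30 to 0.24 at 2 h and from -0.24 to 0.31 at 5 h. In T cells Irf5 lay between 7.14 and 7.39, below the median of its own array in all 6, and was not tested there for a response.

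Irf2, Irf4 and Irf8 had no called change after IFNα. Irf2 in B10.Q macrophages lay between 11.80 and 11.99 over all 6 arrays, with a 95% interval of -0.28 to 0.24 for the 2 h difference. In T cells Irf2 read 10.83 and 10.77 with vehicle, 11.07 and 11.02 at 2 h, and 10.73 and 10.78 at 5 h. The 2 h arrays were the highest, with a difference of 0.25 ± 0.09 (limma adjusted p = 0.763).

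Irf8 in T cells followed the same order, with 8.09 and 8.05, then 8.34 and 8.25, and then 7.97 and 8.02. The 2 h difference was 0.22 ± 0.09 (limma adjusted p = 0.763). Both genes are higher in macrophages than in T cells, and the 2 h arrays are the T-cell arrays with macrophage markers. Macrophage RNA as a cause of these differences was not tested. With macrophage RNA subtracted the 2 h difference was 0.23 for Irf2 and 0.17 for Irf8. Without T-cell array 2 at 2 h, which left array 1 as the only 2 h array, 4 members were called lower at 5 h than at 2 h: Irf1 (-0.75), Irf2 (-0.31), Irf7 (-0.96) and Irf8 (-0.35). In that fit 16.3% of all genes were called, and 5.05% of all genes were called lower, against 0.00989% called in either direction with both arrays.

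Irf4 in B10.Q macrophages read 9.25 and 9.31 with vehicle, 8.73 and 9.11 at 2 h, and 8.98 and 8.73 at 5 h. The 4 IFNα arrays all lay below vehicle, and 32.2% of all genes tested had both 2 h arrays below vehicle. The differences were -0.36 ± 0.18 at 2 h and -0.42 ± 0.18 at 5 h (limma adjusted p = 0.984 and 0.9998). Without array 1 at 2 h the 2 h difference was -0.17, and without array 2 it was -0.55. In T cells it read 7.46 and 7.21 with vehicle, 7.36 and 7.39 at 2 h, and 7.63 and 7.69 at 5 h. There the 5 h arrays were the highest, by 0.33 ± 0.11 over vehicle (limma adjusted p = 0.9998). Irf8 in B10.Q macrophages read 10.39 and 10.75 with vehicle, 10.06 and 10.54 at 2 h, and 10.80 and 10.51 at 5 h, and these groups overlapped.

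The members were also counted by whether the arrays of the groups overlapped. In KO macrophages 2 members, Irf1 and Irf7, had both IFNα arrays below both others, beside 10.3% of all genes tested, and 0 had both above, beside 11.5%. In B10.Q macrophages at 2 h, 2 members (Irf1 and Irf7) lay wholly above vehicle, beside 11.3%, and 2 (Irf3 and Irf4) wholly below, beside 32.2%. At 5 h the same 2 lay above, beside 19.1%, and Irf4 alone below, beside 20.3%. From 2 h to 5 h only Irf3 lay wholly higher, beside 29.7%, and only Irf1 wholly lower, beside 12.1%.

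In T cells at 2 h, 4 members (Irf1, Irf2, Irf7 and Irf8) lay wholly above vehicle, beside 14.5% of all genes tested, and 0 below, beside 19.4%. At 5 h, Irf4 and Irf7 lay above vehicle, beside 21.7%, and Irf8 below, beside 18.6%. From 2 h to 5 h, 4 members (Irf1, Irf2, Irf7 and Irf8) were wholly lower, beside 15.6%, and Irf4 was wholly higher, beside 24%. The comparisons of 2 h with vehicle and of 5 h with 2 h share the 2 h arrays, which held macrophage markers. The comparison of 5 h with vehicle does not use them.

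**Figure D3:**
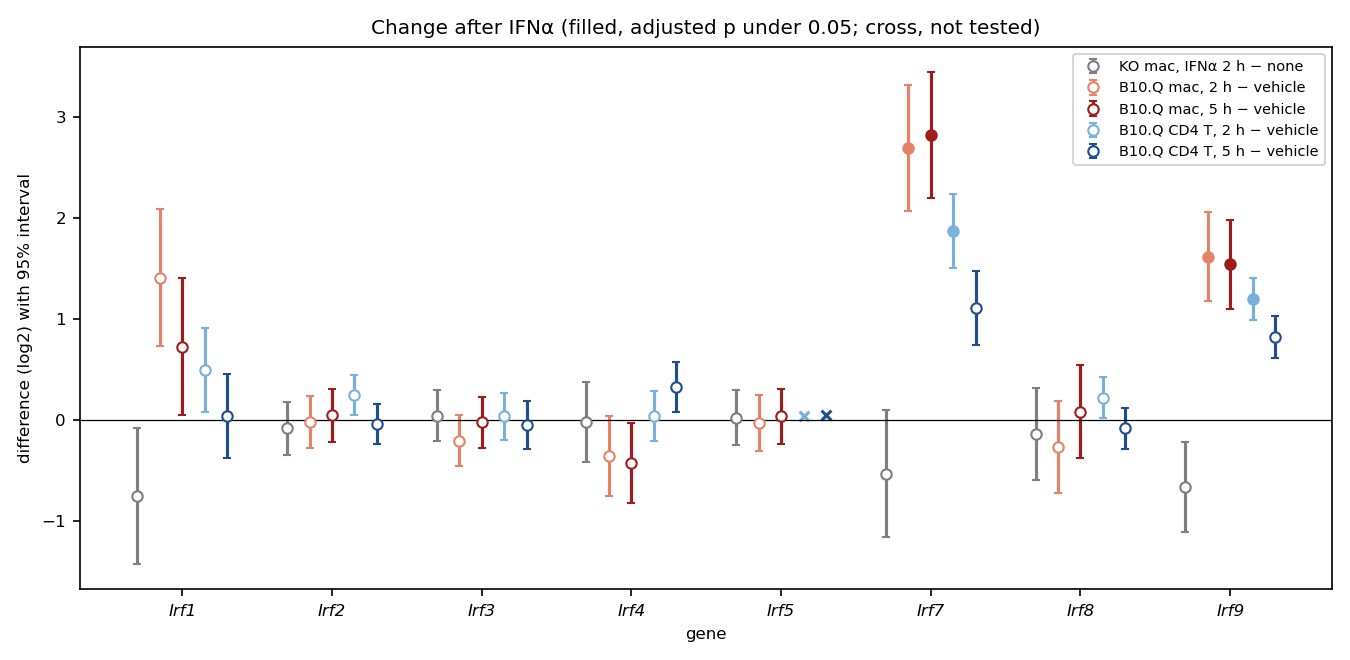
Difference after IFNα (log2, vertical axis) with its 95% interval for each IRF gene, in KO macrophages at 2 h, B10.Q macrophages at 2 h and 5 h, and B10.Q CD4+ T cells at 2 h and 5 h. Filled points passed an adjusted p of 0.05 and crosses were not tested. Irf7 and Irf9 have filled points in B10.Q macrophages at both times and in T cells at 2 h, and every open Irf1 point in B10.Q cells lies at or above 0.04.

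Responses were compared directly between the B10.Q cell types, which share no control arrays. At 2 h the response of Irf7 in macrophages exceeded that in T cells by 0.82 ± 0.32 (limma adjusted p = 0.667). It was 0.39 without macrophage array 1 at 2 h and 1.25 without array 2 (limma adjusted p = 0.0535). That of Irf1 exceeded it by 0.91 ± 0.27 (limma adjusted p = 0.558), and 0 of 7 members were called, beside 0.0269% of all genes. These 2 had an unadjusted p under 0.05, beside 7.3%. At 5 h the excess for Irf7 was 1.71 ± 0.32 (3.28-fold, limma adjusted p = 0.0699), with 0 of 7 members called, beside 0.251% of all genes, and 3 (Irf1, Irf4 and Irf7) at an unadjusted p under 0.05, beside 4.98%. The Irf7 excess was called without the filter on dim genes (limma adjusted p = 0.0497), with array medians subtracted (limma adjusted p = 0.0381) and with only the compared groups in the fit (limma adjusted p = 0.000300681). Irf4 differed at 5 h by -0.75 ± 0.19 (limma adjusted p = 0.249). Irf9 was called at 5 h, with an excess of 0.72 ± 0.12 in macrophages (limma adjusted p = 0.0389). Between 2 h and 5 h in macrophages 0 of 7 members were called, beside 0.0095% of all genes, with 1 (Irf1) at an unadjusted p under 0.05, beside 5.02%, and Irf7 differed by 0.13 ± 0.28.

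The vehicle arrays give the resting IRF levels of the B10.Q cell types. Of the 7 members, 6 differed between them, beside 62.1% of all genes tested, so a call here is common. In macrophages 4 were higher, beside 28.1% of all genes, and 2 were lower, beside 34.1%. Irf5 was higher in macrophages by 3.62 ± 0.12 (12.3-fold, limma adjusted p = 4.9359e-11), Irf8 by 2.50 ± 0.16 (5.64-fold) and Irf4 by 1.95 ± 0.13 (3.85-fold). Irf2 was higher in macrophages by 1.06 ± 0.09 (2.09-fold). Irf1 was lower in macrophages by 1.43 ± 0.19 on the log2 scale (2.69-fold higher in T cells, limma adjusted p = 3.01662e-05), and the dimmer Irf1 probe set differed by -1.14 ± 0.11. Irf3 differed by -0.74 ± 0.10 (1.66-fold higher in T cells). For Irf7 the difference of -0.56 ± 0.23 missed the threshold (limma adjusted p = 0.0520), and it was called with array medians subtracted (limma adjusted p = 0.0276) and with only the compared groups in the fit (limma adjusted p = 0.00328696). The cells also differ in organ, peritoneal cavity against spleen.

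Over arrays, Irf2, Irf4, Irf5 and Irf8 lay wholly higher in macrophages, beside 37.2% of all genes tested, and the other 3 wholly lower, beside 48.5%.

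**Figure D4:**
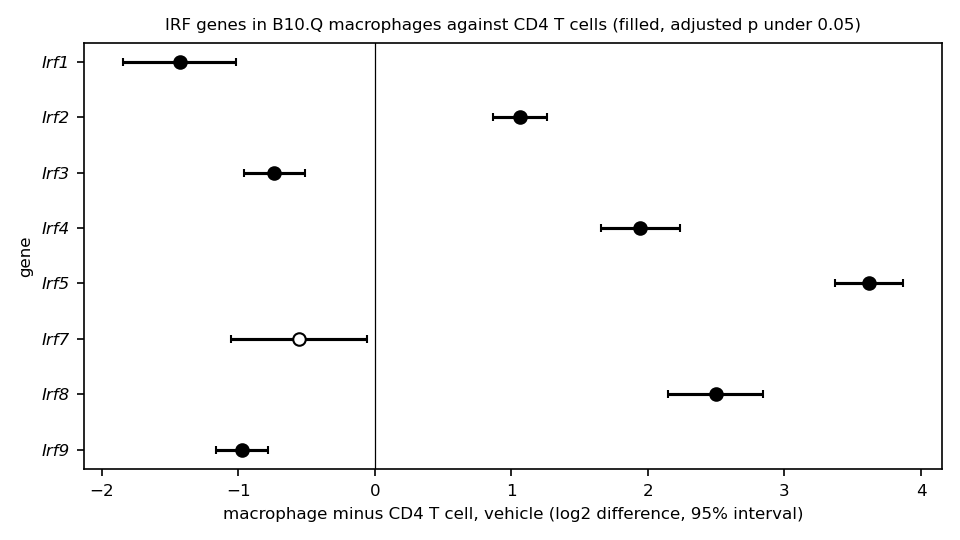
Difference of each IRF gene between B10.Q macrophages and B10.Q CD4+ T cells with vehicle (log2, horizontal axis) with its 95% interval. Filled points passed an adjusted p of 0.05. Irf2, Irf4, Irf5 and Irf8 lie to the right (higher in macrophages) and Irf1, Irf3 and Irf9 to the left, while the open point is Irf7.

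Vehicle B10.Q macrophages and KO macrophages titled without IFNα had 0 of 7 members called, beside 0.541% of all genes, and 2 (Irf1 and Irf8) at an unadjusted p under 0.05, beside 11.5%. Irf1 differed by -0.996 ± 0.304 (limma adjusted p = 0.258), with both B10.Q arrays below both KO arrays. Irf1, Irf3 and Irf8 were wholly lower in B10.Q, beside 24.4% of all genes tested, and 0 members were wholly higher, beside 35.1%. Without KO array 2 that difference was -0.44, and without KO array 1 it was -1.55 and called (limma adjusted p = 0.0419), where 0.315% of all genes were. Irf8 differed by -0.50 ± 0.21 (limma adjusted p = 0.392), Irf7 by -0.17 ± 0.28 and Irf4 by 0.10 ± 0.18.

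Ordered over all 8 groups, the members fell into patterns with few steps beyond the spread, where a step is a difference between neighbouring group means whose 95% interval in a fit of all 16 arrays leaves out 0. Irf3, Irf4, Irf5 and Irf8 each had a single such step, between the T-cell groups and the macrophage groups. That step was 0.58 for Irf3, with T cells above, and 1.19 for Irf4, 3.45 for Irf5 and 2.01 for Irf8, with macrophages above. Irf2 had the same step of 0.80 and a smaller one of 0.25, between the T-cell vehicle and 2 h groups.

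Irf7 had a different order. From the lowest it ran KO with IFNα (8.14), B10.Q macrophage vehicle (8.50), KO titled without IFNα (8.67) and T-cell vehicle (9.06), none of which differed from its neighbour beyond the spread. A step of 1.11 led to T cells at 5 h and another of 0.76 to T cells at 2 h, and the macrophage groups at 2 h (11.20) and 5 h (11.33) came last, without a further step. For Irf1 no neighbouring pair differed beyond the spread, from B10.Q macrophage vehicle (9.06) to T cells at 2 h (10.98).

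The genes around the IRFs were counted from lists chosen with earlier results of these data known. None of the 11 tested activators, the kinases and adaptors upstream of Irf3, Irf5 and Irf7, was called after IFNα in KO macrophages or in either B10.Q cell type at 2 h or 5 h. The same held for the 9 tested brakes, which restrain IRF protein or transcription. Of all genes tested, between 0% and 0.836% were called in these comparisons. In any of these 5 limma comparisons, between 0 and 1 activators and between 0 and 2 brakes had an unadjusted p under 0.05, beside 3.83% to 6.07% of all genes. In B10.Q macrophages at 2 h the median change was -0.06 for the activators and -0.01 for the brakes, against -0.06 over all genes. Between the cell types at rest, 4 of the 11 activators were higher in macrophages, beside 28.1% of all genes, and 4 were lower, beside 34.1%. Unc93b1, which carries Toll-like receptors to endosomes, was higher by 4.01 ± 0.09, and Sting1, the adaptor for cytosolic DNA, differed by -2.04 ± 0.15. Among the 9 brakes 1 was higher in macrophages and 6 were lower, beside the same shares of all genes. Socs1, an inhibitor of JAK kinases, differed by -1.55 ± 0.18.

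Among 9 tested partners, Stat2 rose in B10.Q macrophages by 2.07 ± 0.26 at 2 h (limma adjusted p = 0.00494664) and by 1.87 ± 0.26 at 5 h (limma adjusted p = 0.00855263). Its 2 h response was larger in B10.Q than in KO by 2.29 ± 0.37 (limma adjusted p = 0.0300). In T cells 0 of 8 tested partners were called at either time, beside 0.287% of all genes at 2 h and 0.0198% at 5 h. At an unadjusted p under 0.05 there were 2 at 2 h, beside 6.07% of all genes, and 1 at 5 h, beside 3.83%. At rest 3 of 9 tested partners were higher in macrophages than in T cells, beside 28.1% of all genes, and 2 were lower, beside 34.1%. Spi1, which encodes PU.1, the DNA partner of Irf4 and Irf8, was higher in macrophages by 5.45 ± 0.24. Jun was lower in vehicle B10.Q than in KO macrophages titled without IFNα, at -0.92 ± 0.14 (limma adjusted p = 0.0246).

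Of 8 tested genes known as Irf1 targets, 1 was called in B10.Q macrophages at 2 h, beside 0.798% of all genes. It was Il15, a cytokine for T and NK cells, with a rise of 1.41 ± 0.24 (limma adjusted p = 0.0251). The list's median was 0.47, against -0.06 over all genes. Tap1 read 8.65 and 8.69 with vehicle and 10.37 and 9.68 at 2 h, a difference of 1.35 ± 0.33 (limma adjusted p = 0.184). In T cells at 2 h 0 of 5 were called (0.287% of all genes) and 2 had an unadjusted p under 0.05 (6.07%). The median there was 0.26, against -0.03 over all genes. In KO macrophages 0 of 8 were called (0% of all genes) and 2 had an unadjusted p under 0.05 (4.37%). The median there was -0.33, against -0.01 over all genes, and array 2 titled without IFNα stood higher than array 1 for all 8.

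Of 5 tested genes known as Irf3 and Irf7 targets, 2 were called in B10.Q macrophages at 2 h and at 5 h, beside 0.798% and 0.836% of all genes. Ifit1, which binds foreign RNA, read 6.13 and 6.11 with vehicle, 11.87 and 10.09 at 2 h, and 10.28 and 10.63 at 5 h. Ifit3, its binding partner, rose by 4.19 ± 0.58 at 2 h (limma adjusted p = 0.00794209). In T cells 2 of 7 were called at 2 h, beside 0.287% of all genes. They were Ifit1, with a rise of 5.24 ± 0.28 (limma adjusted p = 0.000771483), and the chemokine Cxcl10, with a rise of 0.86 ± 0.12 (limma adjusted p = 0.0449). The T-cell arrays at 2 h held macrophage markers, and macrophage RNA as a cause of these 2 rises was not tested. Genes such as Ifit1 are also known targets of the complex that holds Irf9. Ifnb1, Ifna2 and Ifna4, interferon genes that Irf3 and Irf7 switch on, were too dim to be tested between the cell types. Ifna5, also on this list, was among the 7 genes tested there and is not described here. Of 5 tested Irf4 and Irf8 targets, 0 were called after IFNα in B10.Q macrophages, beside 0.798% of all genes at 2 h and 0.836% at 5 h. At an unadjusted p under 0.05 there was 1 at 2 h, beside 4.52% of all genes, and 2 at 5 h, beside 3.93%. At rest 3 of 4 tested Irf4 and Irf8 targets were higher in macrophages than in T cells, beside 28.1% of all genes. The list also had 1 lower, beside 34.1%. Cybb, the phagocyte oxidase subunit, was higher in macrophages by 6.62 ± 0.39.

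**Figure D5:**
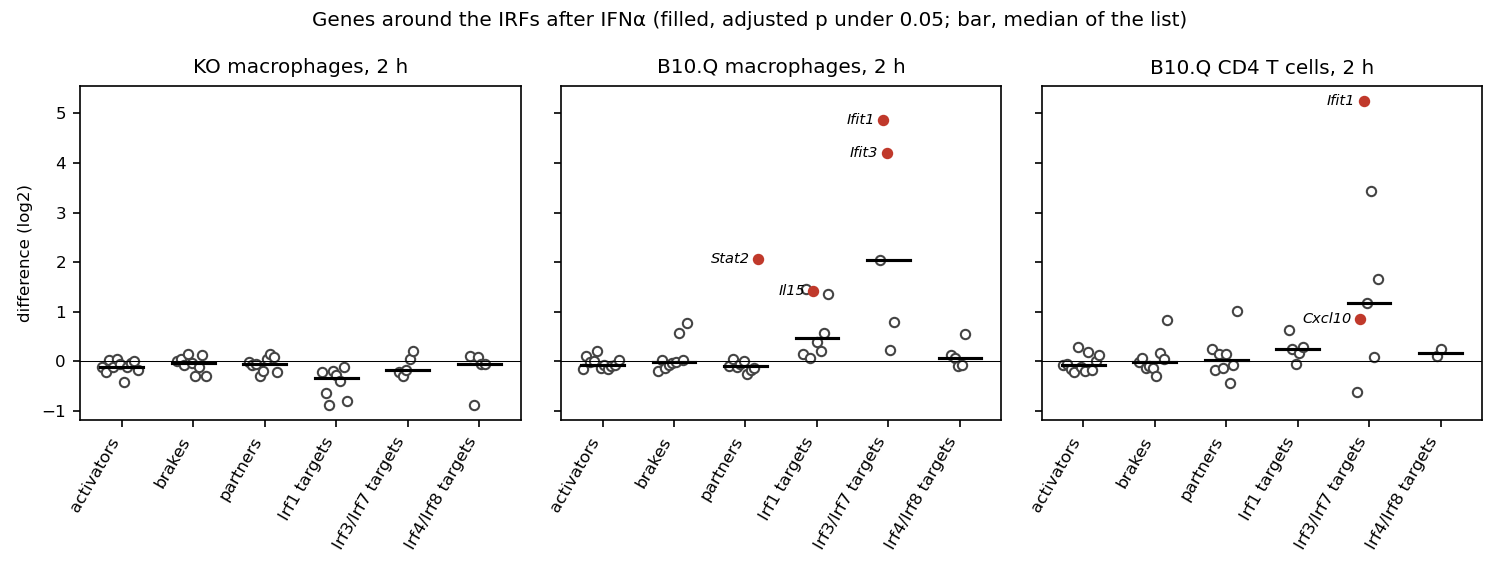
Change after IFNα at 2 h (log2, vertical axis) of each tested gene of 6 lists, in KO macrophages, B10.Q macrophages and B10.Q CD4+ T cells. Filled red points passed an adjusted p of 0.05 and are named, and bars are list medians. Activators and brakes have no filled point, while Stat2, Il15, Ifit1 and Ifit3 are filled in B10.Q macrophages and Ifit1 and Cxcl10 in T cells.

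The genes most like each member were sought over the 16 arrays among 5026 genes that ranged over at least 1 log2 unit. Pearson r is given as a description, since arrays of a group share their cells and treatment. The levels of Irf7 were closest to those of H2-T24 (r = 0.99), Rtp4 (0.99) and Parp14 (0.98). After the mean of each cell type and line was subtracted they were closest to Rtp4 (0.99), Helz2 (0.99) and H2-T24 (0.98). For Irf1 the closest were Tap1 (0.92), Gbp9 (0.90) and Dtx3l (0.90), and after subtraction Gbp5 (0.97), Gm1966 (0.94) and Tap1 (0.92).

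For Irf2, Irf3, Irf4, Irf5 and Irf8 the match in level follows the contrast of cell types. Irf5 was closest to Cyp2ab1, Csf2rb and Ptprj, each at r = 0.998. Irf8 was closest to Epha2 (0.993), Pctp (0.993) and Kank2 (0.992), Irf4 to Dab2ip (0.988), Irf2 to Pdia3 (0.993) and Irf3 to Klhl42 (0.989). With the cell type and line means removed, the best match fell to 0.75 for Irf5 (H2-Oa), 0.84 for Irf4 (Ago1), 0.85 for Irf2 (Pdia3), 0.87 for Irf3 (Lemd3) and 0.90 for Irf8 (Usp10).

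The genes next to the members in the genome were read as well. Irf7 lies between Phrf1 and Cdhr5. Phrf1 differed by -0.11 ± 0.14 in B10.Q macrophages and by -0.06 ± 0.10 in T cells at 2 h, neither called, and Cdhr5 was too dim to be tested. Irf1 lies between Il5, too dim to be tested, and Slc22a5, which differed by -0.10 ± 0.17 and -0.27 ± 0.14. At rest Dusp22, beside Irf4, was higher in macrophages than in T cells by 2.18 ± 0.10, in the direction of Irf4, and Exoc2 on its other side differed by -0.34 ± 0.09. Beside Irf8, Cox4i1 was higher in macrophages by 0.63 ± 0.18.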

How the data were processed

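The 16 arrays were hybridised with amplified RNA of sorted cells. Per the submitters' processing notes, the authors summarised them with RMA in Affymetrix Power Tools, with versions not given in the sources used here, and deposited 1 linear intensity per probe set. RMA normalises arrays towards a common distribution, so a shift of all genes is not measured. The deposited arrays still differed in spread. Their ratio of upper to lower quartile ran from 5.49 (KO IFNα array 1) to 7.52 (B10.Q macrophage array 2 at 5 h). It was 6.06 in B10.Q macrophage array 1 at 2 h. Here log2 of the deposited intensity was taken with no further scaling. Of 24922 probe sets, 21425 carry 1 symbol. The probe set with the highest mean stands for a gene, which gave 19752 genes. limma 3.58.1 in R 4.3.3 (lmFit, eBayes, two-sided, Benjamini-Hochberg adjustment within a contrast) was fitted to 10 macrophage arrays, to 6 T-cell arrays and to 12 B10.Q arrays, over 12 contrasts. The procedure was tested on simulated data. The members, the lists and the rule for named genes (all members, Irf9, the 3 most alike genes, the genome neighbours and up to 4 called genes per list) were chosen with earlier results of these data known. Alternatives used all genes or those above the 70th percentile, quantile normalization, array medians subtracted, a trend and robust variance, every probe set, the replicate number as a block, other samples in the fit, and each array left out. After seeing the data, 2 more were added: crossed numbers and macrophage RNA subtracted. Promoter sequences are from RefSeq (GRCm38.p6), which held all 7 members. Some listed genes are not analysed here.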

Additional observations from a re-analysis of the deposited data

Results flagged for a closer look

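The 2 h response of Irf7 differed between B10.Q and KO macrophages by 3.23 ± 0.40 (log2, limma adjusted p = 0.00894825), a difference tested as an interaction in the fit. Irf7 was higher at 2 h in both B10.Q arrays (11.63 and 10.77 against 8.37 and 8.64) and lower in both KO arrays with IFNα (7.87 and 8.40 against 8.42 and 8.92). Genotype, strain and age differ together between the groups and cannot be told apart.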

How the results depend on the processing

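Of the single-member values under the alternatives, 1138 kept their direction where called and their side of the threshold, 20 passed it only under the alternative and 5 lost it, and 0 called values changed sign. Many of the 1138 were called neither in the main fit nor in the alternative. The 5 losses all fell on Irf7. It was called in 11 of 14 alternatives in T cells at 2 h, and in 16 of 18 for the 2 h response difference between B10.Q and KO. Counts of members are given with the share of all genes called in the same fit. With only the compared groups fitted, the members called numbered 2 in macrophages at 2 h (1.22% of genes) and 2 at 5 h (2.02%), where Irf1 joined Irf7. They numbered 0 in T cells at 2 h (0.0201%), 1 in T cells at 5 h (Irf7, 0.633%), and 3 for the 5 h response difference between cell types (Irf1, Irf4 and Irf7, 1.27%). With all 16 arrays fitted together they numbered 2 in macrophages at 2 h (0.973%) and 2 for the 2 h response difference between B10.Q and KO (Irf1 joined, 0.637%). Without the filter (0.152%), and with array medians subtracted (0.323%), 1 member (Irf7) was called for the 5 h response difference between cell types. Leaving out each array gave 0 to 1 called members for B10.Q vehicle against KO, 0 to 2 for T cells at 2 h, 0 to 4 for T cells at 5 h against 2 h, and 0 to 2 for the 2 h response difference between B10.Q and KO. The upper ends came from fits that called 0.315% of all genes (without KO array 1 titled without IFNα), 18.1% and 16.3% (both without T-cell array 2 at 2 h), and 0.286% and 4.68% (without KO array 1 titled without IFNα and without KO IFNα array 2). When 1 array of a group was left out, the lone array took the spread of the other groups.

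The labels do not pair the numbered arrays, except that same-numbered vehicle arrays of the B10.Q cell types share a time. Deviations of same-numbered arrays correlated at -0.22 for the KO pair of groups and between -0.07 and 0.09 for the other pairs compared directly. Among groups set against each other in the response differences they reached 0.28 (B10.Q macrophages at 2 h with KO IFNα) and 0.17 (B10.Q macrophages with T cells at 2 h). The replicate number as a block left 1 member called in macrophages at 2 h (0.712% of genes), 1 at 5 h (0.769%), 1 in T cells at 2 h (0.356%), 6 between cell types (61.9%) and 1 for the B10.Q against KO response (0.389%), with Irf7 in macrophages at 2 h at 2.70 (limma adjusted p = 0.00358634). With the KO numbers crossed, chosen after seeing the data, 0 members were called in KO macrophages (0%) and 1 for the B10.Q against KO response (0.541%). Another scaling moved the median of all genes by at most 0.06 in any contrast.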
